A study of Macaca mulatta with 10 samples.

Results

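The nuclear genes of respiratory complexes II to V were examined in RNA from flow-sorted Tr1 cells of rhesus macaques. They were taken as every row of the count table whose human gene symbol was SDHA, SDHB, SDHC or SDHD or began with UQCR, with COX4, COX5, COX6, COX7 or COX8, or with ATP5. The rule found 51 of the 26484 genes in the table, namely 4 for complex II, 10 for complex III, 17 for complex IV and 20 for complex V. It takes in the pseudogenes UQCRBP1 and ATP5EP2, the UQCRH copy UQCRHL, the readthrough gene ATP5J2-PTCD1, and ATP5SL, which despite its symbol is known as an assembly factor of complex I. It leaves out subunits with other symbols, such as cytochrome c1 (CYC1), and the subunits encoded in mitochondrial DNA.

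Complex II (succinate dehydrogenase) links the tricarboxylic acid cycle to the respiratory chain by passing electrons from succinate to ubiquinone. Complex III (the cytochrome bc1 complex) passes them on to cytochrome c, and complex IV (cytochrome c oxidase) from there to oxygen, both adding to the proton gradient across the inner mitochondrial membrane. Complex V (ATP synthase) uses that gradient to make ATP, through a membrane part, Fo, whose ring of c subunits turns a rotor inside the catalytic part, F1. T cells are known to raise respiration and glycolysis on activation, and regulatory and memory T cells are known for their reliance on respiration.

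All monkeys, of both cohorts, had streptozotocin-induced diabetes and received an islet allograft from a donor that differed at MHC class I and shared 1 DRB allele. All were given transient immunotherapy with an antagonistic antibody to CD40, rapamycin, a soluble TNF receptor and an antibody to the interleukin receptor IL-6R. The 5 Cohort C monkeys (13EP5, 14HP33, 14HP24, 15CP1 and 15CP4) also received infusions of apoptotic donor leukocytes (ADLs), and the 5 Cohort B monkeys (13EP12, 13EP8, 14HP26, 14HP31 and 15CP6) did not. Blood mononuclear cells, by the sample labels collected at the 365 day end point in Cohort C and at rejection in Cohort B, were frozen, thawed and rested overnight. The study's text, unlike the label, describes monkey 15CP1 as not sacrificed at that end point, so the collection time of this library is in doubt. Cells positive for CD4, CD49b and LAG-3 were then sorted, and 1 library was made per monkey. Monkeys 14HP26, 14HP31 and 15CP6 are recorded with rejection and the other Cohort B monkeys without, so that ADL treatment and rejection cannot be told apart in those 3 monkeys. For 13EP12 and 13EP8 the label of collection at rejection conflicts with this record. The collection time of their libraries is therefore in doubt as well.

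Total counts ran from 6076 (14HP31) to 1392157 (13EP8) in Cohort B and from 66485 (15CP4) to 5895609 (15CP1) in Cohort C. In the library of monkey 14HP33, 82.6% of the counts fell on the single gene MTRNR2L1, which left 126178 counts outside the MTRNR2L family. Its TMM factor, the correction of library size for composition, was 0.0725, so that its CPM below are 13.8 times its counts per 1000000 total counts. In the deep libraries named next the factor lay between 0.818 (15CP1) and 0.968. The 4 libraries of over 1000000 counts, from monkeys 13EP12 and 13EP8 of Cohort B and 13EP5 and 15CP1 of Cohort C, are called the deep libraries here. All 4 came from monkeys without recorded rejection. The 10 T cell marker genes were all detected in each deep library, and between 0 and 5 of them in each of the other 6 libraries. Of the genes for the sorted surface proteins, CD4 was at 0 in monkeys 14HP26, 14HP31, 14HP33 and 15CP4. LAG3 and ITGA2, which encodes CD49b, had no count in any of the 6 shallower libraries, and LAG3 had none in monkey 13EP8 either. Genes that mark monocytes were also found, with between 5 and 8 of 8 detected in the deep libraries at a summed level of 185 to 1389 CPM (counts per library size, TMM-scaled), against 1385 to 1762 CPM for the T cell markers. Genes that mark CD8 T and NK cells summed to 224 and 103 CPM in 13EP12 and 13EP8 against 33.7 and 81.3 CPM in 13EP5 and 15CP1, and all 6 tested had a log2 fold change below 0, with 0 called. Platelet markers summed to 22.6 and 6.12 CPM against 281 and 4.98 CPM, and all 5 tested were above 0, with 0 called. B cell markers stood at 55.5 and 78.0 CPM against 32.4 and 82.2 CPM. The part of these cell types in the levels below was not tested.

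Most counts on the genes of complexes II to V lay in the deep libraries, as did those of other genes. Of 22940 counts on the 51 genes, 22089 (96.3%) lay in those 4, and of the counts on all genes outside the MTRNR2L family 94.2% did. In Cohort B, 28, 37, 8, 3 and 13 of the 51 genes had at least 1 count, in the order 13EP12, 13EP8, 14HP26, 14HP31 and 15CP6. In Cohort C the numbers were 45, 6, 7, 44 and 0, in the order 13EP5, 14HP33, 14HP24, 15CP1 and 15CP4. The range of Cohort B lay within that of Cohort C, and each cohort held both well covered and nearly empty libraries. Among the deep libraries those of Cohort C, with 45 and 44 genes, stood above those of Cohort B, with 28 and 37, and were also the deeper ones. Of the 45 genes detected anywhere, 26 were found in all 4 deep libraries, 21 in deep libraries only, and no gene in more than 7 of the 10 libraries.

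**Figure D1:**
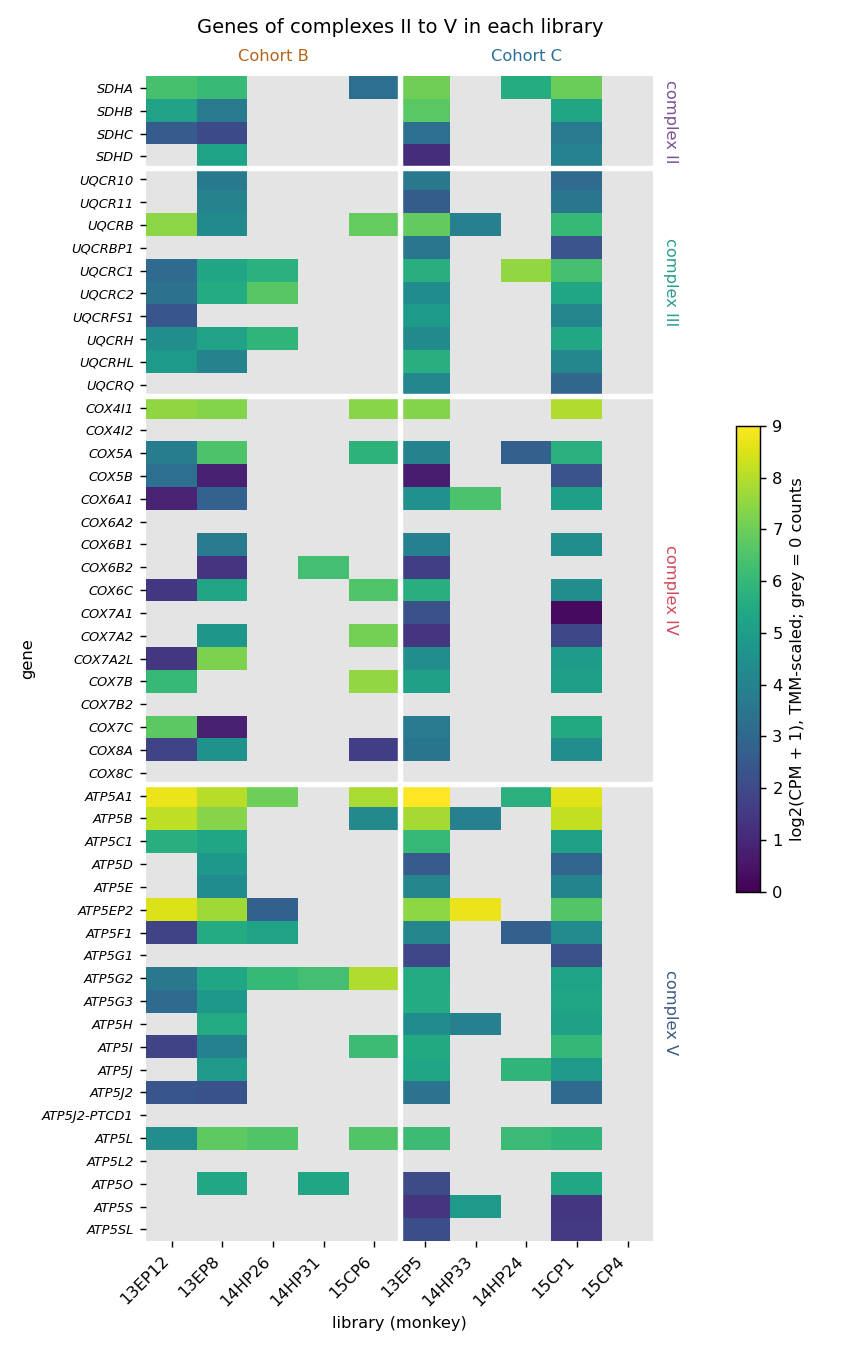
Level of each of the 51 genes (rows, grouped by complex) in each of the 10 libraries (columns), as log2(CPM + 1) on a colour scale, with grey for 0 counts. Colour fills the columns of monkeys 13EP12, 13EP8, 13EP5 and 15CP1, while the column of 15CP4 is grey throughout.

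The shallower libraries, and to a lesser degree the deep ones of Cohort B, held fewer of the genes than their depth would give. If each gene had held the share of the counts outside the MTRNR2L family that it had in the 4 deep libraries pooled, 31.7 of the genes would have been detected at the depth of monkey 14HP26, where 8 were. For 15CP6 this number was 40.6, and 13 were detected. In Cohort C it was 35.3 for 14HP33, where 6 were detected, 33.8 for 14HP24, where 7 were, and 24 for 15CP4, where none was. The same calculation over all genes tested fell short in these libraries as well. Detection stood at 25.2% of the calculated number in 14HP26 for these genes and at 29.9% for all genes tested, at 32.0% and 41.0% in 15CP6, at 17.0% and 16.2% in 14HP33, and at 20.7% and 35.8% in 14HP24. In 15CP4 it was 0 against 12.9% for all genes. The order was thus the other way, by little, in 14HP33. It was also the other way in 14HP31, where 3 genes were detected of 7.24 calculated, at 41.4% against 17.3%. The deep Cohort B libraries, which helped to set the shares, stood at 63.9% against 66.1% (13EP12) and at 84.0% against 74.5% (13EP8). Most counts behind the pooled shares came from 13EP5 and 15CP1 of Cohort C. The summed level was less affected in monkey 15CP6, whose 640 counts on these genes compare with 669 calculated from its depth, spread over only 13 genes. In monkeys 14HP33 and 14HP24 the counts were 41 and 73, against 244 and 202 calculated. Monkey 15CP4 had 0 of 37619 counts outside the MTRNR2L family, which allows a share of up to 0.00797% (3 counts, counting error only), where the deep libraries held 0.181% to 0.221%.

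**Figure D2:**
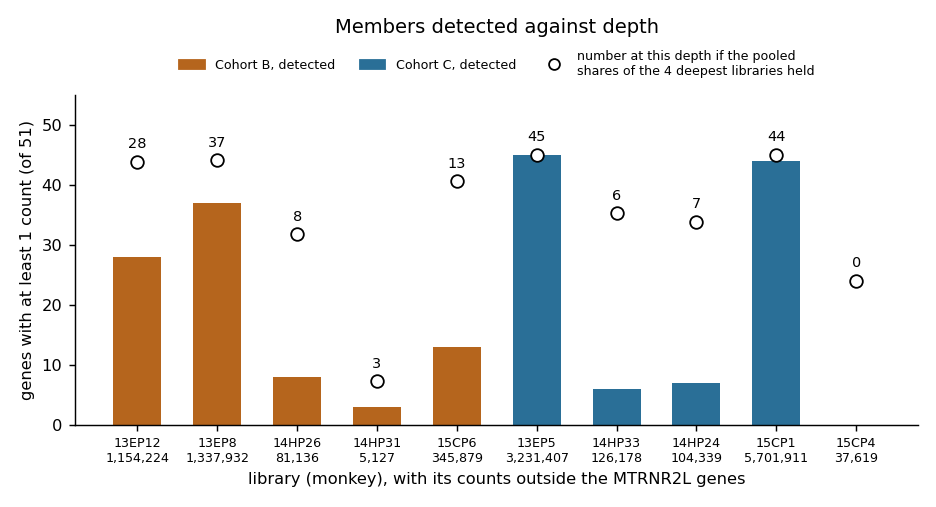
Number of the 51 genes with at least 1 count in each library (bars, Cohort B and Cohort C) beside the number that its depth would give if the pooled shares of the 4 deep libraries held (open circles). Bars reach the circles in monkeys 13EP5 and 15CP1, with 45 and 44 genes, and stay under them in every other library.

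Complex II was carried mainly by SDHA and SDHB, the flavoprotein and iron-sulfur subunits that take electrons from succinate. SDHA was found at 83.3, 66.5 and 8.85 CPM in 13EP12, 13EP8 and 15CP6 of Cohort B, and at 132, 46.2 and 126 CPM in 13EP5, 14HP24 and 15CP1 of Cohort C. SDHB was at 35.6 and 12.2 CPM in 13EP12 and 13EP8 and at 104 and 39.2 CPM in 13EP5 and 15CP1. On this scale both genes were higher in each deep Cohort C library than in either deep Cohort B library. Per 1000000 total counts, without the TMM factor, this held for SDHA but not for SDHB, at 32.1 in 15CP1 against 34.4 in 13EP12. Both cohorts also held libraries with no count. SDHC and SDHD encode the membrane anchors that bind ubiquinone. SDHC had 6, 4, 28 and 60 counts in monkeys 13EP12, 13EP8, 13EP5 and 15CP1 and was at 0 elsewhere. SDHD was uneven among the deep libraries, with 48 counts in 13EP8 and 71 in 15CP1 but 0 in 13EP12 and 4 in 13EP5.

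Between cohorts the log2 fold changes (Cohort C over Cohort B) were 0.89 (standard error 2.05) for SDHA, 1.46 (standard error 2.10) for SDHB, 1.16 (standard error 1.86) for SDHC and -1.10 (standard error 1.95) for SDHD. The smallest adjusted p among the 4 genes, by the quasi-likelihood test of edgeR, was 0.985. On the log2(CPM + 1) scale SDHA was 3.16 ± 3.12 (SD, n = 5 monkeys) in Cohort B and 3.92 ± 3.63 (SD, n = 5) in Cohort C, a difference with a two-sided p = 0.667 in an exact permutation test. Without monkey 13EP8 the log2 fold change of SDHD was 5.19, and without 13EP5 that of SDHB was -0.16. Summed over the complex, the level was 124, 119, 0, 0 and 8.85 CPM in Cohort B and 245, 0, 46.2, 192 and 0 CPM in Cohort C, in the orders given above, so that the ranges overlapped.

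In complex III the core proteins UQCRC1 and UQCRC2, which form the part of the complex in the matrix, were detected in 6 and 5 libraries. UQCRC1 was at 7.81, 38.2 and 52.9 CPM in Cohort B monkeys 13EP12, 13EP8 and 14HP26, and at 50.2, 185 and 79.5 CPM in 13EP5, 14HP24 and 15CP1 of Cohort C. The 185 CPM of monkey 14HP24 stood on 32 counts. UQCRC2 was at 9.55, 45.1 and 100 CPM in the same Cohort B monkeys and at 19.95 and 39.0 CPM in 13EP5 and 15CP1. Their log2 fold changes pointed in opposite directions, 1.61 (standard error 2.11) for UQCRC1 and -1.32 (standard error 2.09) for UQCRC2, and neither passed the test (edgeR, adjusted p = 0.959 and 0.9998). UQCRFS1, the Rieske iron-sulfur protein that takes the electron from ubiquinol, had 92 and 78 counts in 13EP5 and 15CP1 against 5 in 13EP12 and 0 in 13EP8 and all shallower libraries, for a log2 fold change of 2.93 (standard error 2.14, edgeR adjusted p = 0.573).

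UQCRQ, a small ubiquinone-binding subunit, had the smallest p of all members. It had 54 and 33 counts in 13EP5 and 15CP1 of Cohort C and 0 in the other 8 libraries, including the deep Cohort B libraries 13EP12 and 13EP8. Set against 3 counts over the whole of Cohort B, its level pooled over Cohort C was at least 10.7-fold higher. This bound covers counting error only, not the spread between monkeys. UQCRQ also reached the 10 counts needed for testing through Cohort C alone. Both limits hold for the other genes given such a bound below. The fitted log2 fold change of UQCRQ was 5.68 (standard error 2.29, edgeR adjusted p = 0.141). An exact permutation test over the 10 libraries gave a two-sided p = 0.444, with a count in 2 of 5 Cohort C and 0 of 5 Cohort B libraries. The pseudogene UQCRBP1 had the same pattern, with 34 and 20 counts in 13EP5 and 15CP1 and none elsewhere, a level at least 6.64-fold higher on the same floor. Its parent UQCRB was well covered in both cohorts, at 173, 18.4 and 117 CPM in 13EP12, 13EP8 and 15CP6 and at 114, 14.2 and 64.5 CPM in 13EP5, 14HP33 and 15CP1. The deep Cohort B libraries thus lay on both sides of the Cohort C ones for UQCRB, whose log2 fold change was -0.68 (standard error 2.04).

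UQCRH, the hinge protein that helps cytochrome c1 meet cytochrome c, shares nearly the same coding sequence with UQCRHL, so the split of reads between them is uncertain. UQCRHL took 57.9% of the counts of the pair in 13EP12 (95% Wilson interval 44.98 to 69.8%) and 30.3% in 13EP8 (20.6 to 42.2%). In Cohort C it took 72.5% in 13EP5 (66.2 to 78.0%) and 29.3% in 15CP1 (24.3 to 34.9%), so that the libraries of each cohort lay apart and the cohorts did not. The pair together was much more even than either gene, at 49.5, 50.5 and 58.8 CPM in Cohort B monkeys 13EP12, 13EP8 and 14HP26 and at 68.0 and 58.1 CPM in 13EP5 and 15CP1 of Cohort C, and at 0 in the other 5 libraries. Taken apart, the log2 fold changes were -0.90 (standard error 2.07) for UQCRH and 0.52 (standard error 2.04) for UQCRHL. The remaining small subunits UQCR10 and UQCR11 were both absent from 13EP12 and present in the other 3 deep libraries at between 5.30 and 15.3 CPM, with log2 fold changes of 0.62 and 0.03.

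Complex IV was led by COX4I1, the subunit 4 isoform of most tissues, at 180, 160 and 166 CPM in 13EP12, 13EP8 and 15CP6 of Cohort B and at 158 and 240 CPM in 13EP5 and 15CP1 of Cohort C. None of the other 5 libraries held a count. The log2 fold change was -0.35 (standard error 1.98, edgeR adjusted p = 0.9998). COX5A was found at 13.0, 89.5 and 55.3 CPM in 13EP12, 13EP8 and 15CP6 of Cohort B, and at 15.3, 5.77 and 51.3 CPM in 13EP5, 14HP24 and 15CP1 of Cohort C. COX5B was low, with 10, 1, 2 and 19 counts in 13EP12, 13EP8, 13EP5 and 15CP1. Neither subunit, both of which face the matrix, separated the cohorts, with log2 fold changes of -1.10 (standard error 2.07) and -0.82 (standard error 1.68).

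The small subunits of complex IV differed widely between the deep libraries of Cohort B. COX7C had 120 counts in monkey 13EP12 and 1 in 13EP8, libraries of 1191070 and 1392157 counts. COX7B had 74 and 0 in the same order, while COX7A2L, a 7A-related protein known for joining complexes III and IV into supercomplexes, had 2 and 193. In the deep Cohort C libraries these genes were at 38 and 208, 112 and 160, and 66 and 148 counts, in 13EP5 and 15CP1. COX7A2, the widespread subunit 7A isoform, had the lowest log2 fold change of the 45 genes tested. It had 34 and 62 counts in 13EP8 and 15CP6 against 5 and 14 in 13EP5 and 15CP1, for a log2 fold change of -4.62 (standard error 2.43). It did not pass the test (edgeR's quasi-likelihood, p = 0.0570, adjusted p = 0.261; exact permutation test, two-sided p = 0.444), and 53.9% of its counts lay in monkey 15CP6. COX6A1 went the other way, at 0.868 and 6.12 CPM in 13EP12 and 13EP8 against 22.4, 85.5 and 32.8 CPM in 13EP5, 14HP33 and 15CP1, where the 85.5 CPM rested on 6 counts and was 6.196 per 1000000 total counts, against 5.75 in 13EP8. All 3 Cohort C libraries with a count stood above every Cohort B library, and the log2 fold change was 3.84 (standard error 2.39, edgeR adjusted p = 0.412; exact permutation test, two-sided p = 0.167).

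Complex IV is the complex whose subunits come in tissue-restricted isoforms, and these were nearly absent. COX4I2, known from lung, COX6A2, known from heart and skeletal muscle, and COX7B2 and COX8C, known from testis, had 0 counts in all 10 libraries, which allows up to 3 counts in each. COX7A1, the heart and muscle partner of COX7A2, had 12 counts in 13EP5 and 1 in 15CP1, and COX6B2, the testis partner of COX6B1, had 2, 2 and 7 in 13EP8, 14HP31 and 13EP5. Their widespread partners had 2154 counts (COX4I1), 245 (COX6A1), 159 (COX6B1), 115 (COX7A2), 430 (COX7B) and 169 (COX8A) over the 10 libraries. COX7A1 was at least 1.60-fold higher in Cohort C against 3 counts over Cohort B, and 92.3% of its counts came from monkey 13EP5. The log2 fold change of COX6B2 was -3.83 (edgeR adjusted p = 0.989), set by 2 counts in the library of 6076 counts. Of the other widespread partners, COX6B1 (1.30) and COX8A (0.09) had positive and COX7B (-1.82) a negative log2 fold change. Of 7 muscle marker genes, between 0 and 3 were detected in each library, at up to 79.1 CPM in Cohort B and 10.2 CPM in Cohort C, and MB, which encodes myoglobin, was at 0 in all libraries.

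Complex V held the most counts, 54.3% to 61.1% of those on all 51 genes in the 4 deep libraries. Complex IV followed with 15.5% to 27.1%, complex III with 9.55% to 14.6% and complex II with 6.33% to 11.04%. These shares also depend on the number and length of the genes in each complex. That of complex V includes the pseudogene ATP5EP2 and ATP5SL. ATP5A1 and ATP5B encode the alpha and beta subunits that form the head of F1, beta being catalytic. ATP5A1 was at 423, 260, 129, 0 and 230 CPM in Cohort B and at 528, 0, 52.0, 385 and 0 CPM in Cohort C, in the orders given above. ATP5B was at 282, 164 and 17.7 CPM in 13EP12, 13EP8 and 15CP6, and at 221, 14.2 and 289 CPM in 13EP5, 14HP33 and 15CP1. In the deep libraries both genes took overlapping values in the cohorts, and their log2 fold changes were -0.12 (standard error 1.92) and 0.16 (standard error 1.97). The gamma subunit gene ATP5C1, the stalk of the rotor, was at 50.3 and 38.2 CPM in 13EP12 and 13EP8 and at 64.8 and 34.7 CPM in 13EP5 and 15CP1, and was at 0 in every shallower library, for a log2 fold change of 0.13 (standard error 2.05).

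The c subunit of the Fo ring is encoded by ATP5G1, ATP5G2 and ATP5G3, which give the same mature protein. ATP5G2 was the only member detected in all 5 Cohort B libraries, at 11.3, 39.0, 64.7, 79.1 and 241 CPM, and was found in only 2 of Cohort C, at 44.3 and 36.5 CPM in 13EP5 and 15CP1. Over the 10 libraries it was 5.84 ± 1.57 (SD, n = 5 monkeys) on the log2(CPM + 1) scale in Cohort B and 2.15 ± 2.94 (SD, n = 5) in Cohort C, the smallest permutation p of all members (exact permutation test, two-sided, p = 0.0556, adjusted to 1 over all genes tested). Its log2 fold change was -2.34 (standard error 2.13, edgeR adjusted p = 0.768), while in the deep libraries alone it was 0.53. The 79.1 CPM of monkey 14HP31 was 2 counts. ATP5G3 had 9, 35, 144 and 186 counts in 13EP12, 13EP8, 13EP5 and 15CP1, and ATP5G1 had 9 and 18 in 13EP5 and 15CP1 and none elsewhere, at least 3.32-fold higher in Cohort C against 3 counts over Cohort B. The 3 genes thus gave log2 fold changes of 4.16 (ATP5G1), -2.34 (ATP5G2) and 1.15 (ATP5G3), of which none passed the test.

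ATP5E, which encodes the epsilon subunit of the rotor, has a near-identical pseudogene, ATP5EP2, and most counts of the pair fell on the pseudogene. ATP5EP2 took 100% of the counts of the pair in 13EP12 (421 of 421; 95% Wilson interval 99.1 to 100%) and 91.4% in 13EP8 (87.6 to 94.0%). In 13EP5 it took 91.5% (89.1 to 93.5%) and in 15CP1 85.9% (82.7 to 88.6%). In the FPKM values (fragments scaled by gene length and library size) of the same libraries the pseudogene was given 56.7%, 56.2%, 12.2% and 28.5% of the pair. The pair was at 365 and 230 CPM in the deep Cohort B libraries and at 192 and 110 CPM in the deep Cohort C ones, and ATP5EP2 was the single member for which both deep Cohort C libraries lay below both of Cohort B. Among the shallower libraries monkey 14HP33 had 427 CPM of it, on 30 counts. Without the TMM factor this was 30.98 per 1000000 total counts, against 353 in 13EP12. Over all 10 libraries the log2 fold change was 0.23 (standard error 1.96).

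Among the peripheral stalk and membrane subunits, ATP5L (subunit g) was the most widely seen, at 20.8, 107, 94.1 and 92.9 CPM in Cohort B monkeys 13EP12, 13EP8, 14HP26 and 15CP6 and at 70.5, 69.3 and 57.9 CPM in 13EP5, 14HP24 and 15CP1 of Cohort C. The stalk genes ATP5F1 (subunit b), ATP5H (subunit d), ATP5J (coupling factor F6) and ATP5O (OSCP, which ties the stalk to F1) were at 3, 0, 0 and 0 counts in 13EP12 against 59, 58, 36 and 53 in 13EP8. ATP5O was also uneven in Cohort C, with 10 counts in 13EP5 and 200 in 15CP1. Log2 fold changes of these 5 genes ran from -0.98 (ATP5F1) to 1.97 (ATP5J). ATP5D, the delta subunit of the rotor, and ATP5I and ATP5J2, subunits e and f, had 83, 498 and 79 counts over the 10 libraries and log2 fold changes of -1.08, 0.25 and 0.94. ATP5S, a coupling factor B-like gene, had 5, 2 and 8 counts in 13EP5, 14HP33 and 15CP1 and none in Cohort B (at least 1.84-fold higher against 3 counts over Cohort B; fitted log2 fold change 5.58, standard error 2.29, edgeR adjusted p = 0.141). ATP5SL had 11 and 9 counts in 13EP5 and 15CP1 and none elsewhere, at least 2.46-fold higher on the same floor. ATP5L2 and ATP5J2-PTCD1 were at 0 in all 10 libraries.

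Over all complexes, no member was called different between the cohorts. At the threshold used for calls (p under 0.01 before adjustment, and a change of 1.5-fold or more), the quasi-likelihood test of edgeR picked 0 of the 45 members tested, where it picked 6.43% of all 14168 genes tested, 1.07% as higher and 5.36% as lower in Cohort C. An adjusted p under 0.05 was reached by 0 of the 45 members and 0 of all genes. At an unadjusted p under 0.05 there were 6 of the 45 members, against 20.6% of all genes. These were UQCRQ, UQCRBP1, COX7A1, ATP5G1, ATP5S and ATP5SL, each with 0 counts in all 5 Cohort B libraries. They passed the minimum of 10 counts over all libraries through Cohort C alone, so a difference was built into their being tested. Among 14165 genes tested with a unique symbol, 1941 were likewise at 0 in all of Cohort B, beside these 6 of 45 members. In all of Cohort C 716 of those genes and 0 members were at 0. The other 6 of the 51 genes were not tested, having 0 counts in every library. DESeq2, edgeR's exact test, limma-voom and limma on the FPKM values also called 0 members. Over all genes DESeq2, the exact test and limma-voom called fewer than the main test, as given under the alternatives. The number called over all genes by limma on the FPKM values is not given here. These zeros are therefore no separate result about the members.

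By complex, 3 of the 4 members tested in complex II had a log2 fold change above 0, 7 of 10 in complex III, 4 of 13 in complex IV and 12 of 18 in complex V, together 26 of 45, beside 53.5% of all genes. The medians were 1.02, 0.57, -0.90 and 0.24, against 0.16 for all genes tested. Setting the 6 genes absent from Cohort B to their lower bounds could not change the medians of the complexes. Each bound, like the fitted value, lay above the median of its complex. These medians rested on few libraries. Without monkey 13EP5 that of complex III was -0.34, without 13EP8 it was 2.80, and over the deep libraries alone that of complex IV was 0.01.

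**Figure D3:**
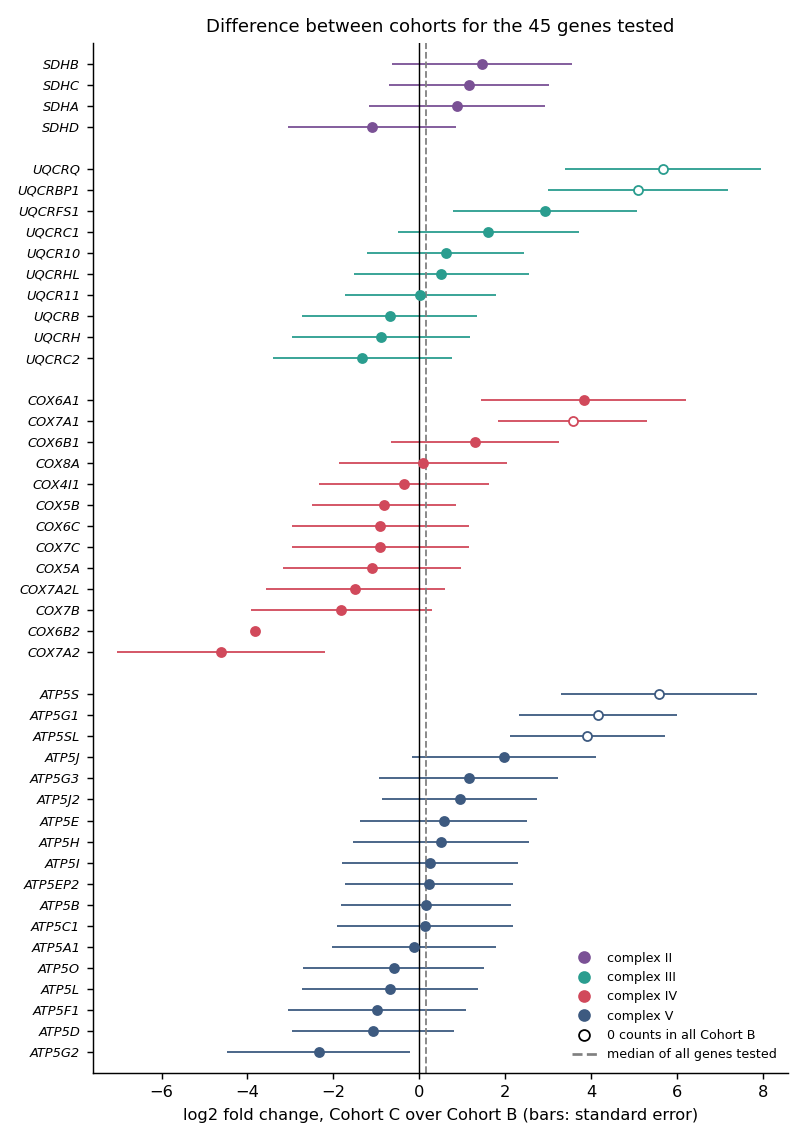
Log2 fold change of Cohort C over Cohort B, with its standard error, for the 45 genes tested, grouped by complex; open circles mark the 6 genes with 0 counts in all Cohort B libraries, and COX6B2 has no bar because edgeR bounded its p by another test. The dashed line is the median of all genes tested (0.16), and the bars of most genes cross it.

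Summed levels gave the same picture of wide spread within each cohort. On the log2(summed CPM + 1) scale, complex II was 3.43 ± 3.47 (SD, n = 5 monkeys) in Cohort B and 4.22 ± 3.96 in Cohort C, and complex III was 6.01 ± 3.38 and 5.60 ± 3.61. Complex IV was 6.64 ± 3.89 and 5.32 ± 3.84, and complex V was 8.98 ± 1.37 and 7.40 ± 4.29, in the same order, each difference being under the SD of either cohort except for complex V, where it was under that of Cohort C. The smaller SD of complex V in Cohort B came with a count in all 5 libraries, from 119 CPM in 14HP31 to 1170 CPM in 13EP12. In bulk RNA of this kind, fewer cells of a type and less RNA per cell cannot be told apart.

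**Figure D4:**
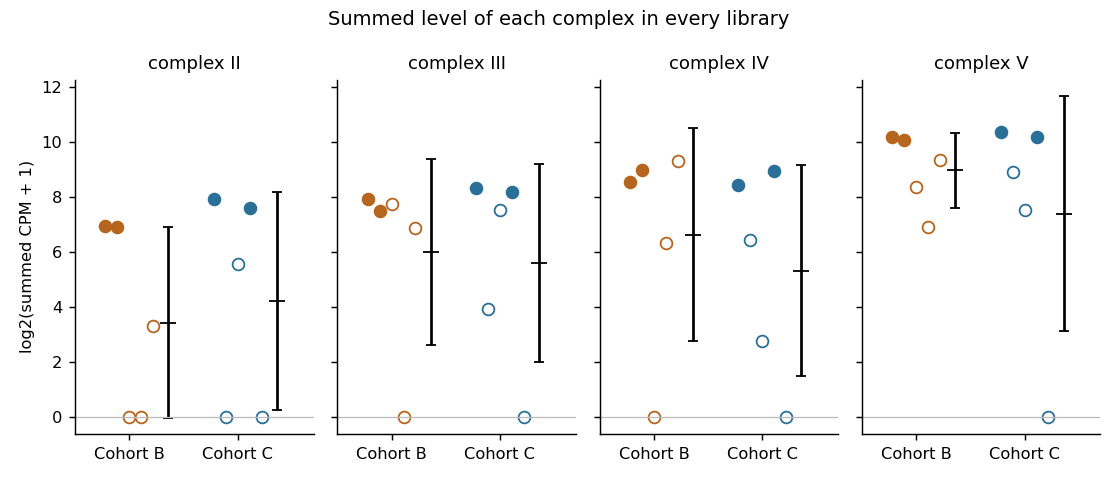
Summed level of each complex as log2(summed CPM + 1) in the 5 libraries of each cohort, with filled circles for the 4 deep libraries, open circles for the others, and the mean ± SD of the cohort as a bar. Filled circles of the cohorts lie close together, while the open ones reach down to 0.

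Within the deep libraries the levels were closer and their order differed by complex. Summed over complex II, monkeys 13EP12 and 13EP8 stood at 124 and 119 CPM and monkeys 13EP5 and 15CP1 at 245 and 192 CPM. For complex III the values were 244 and 179 CPM against 325 and 287 CPM. Both Cohort C libraries were thus above both Cohort B libraries for these complexes on the TMM-scaled values. As a share of the counts outside the MTRNR2L family, without the TMM factor, complex III overlapped, at 0.02424% in 15CP1 against 0.02435% in 13EP12. Markers of CD8 T and NK cells were lower and those of monocytes and platelets uneven in the same libraries, as given above, and their part was not tested. Complex IV overlapped, at 377 and 507 CPM against 345 and 499 CPM, and so did complex V, at 1170 and 1068 CPM against 1309 and 1160 CPM. With 2 libraries against 2, an exact two-sided permutation test cannot give a p under 0.333. Of the 44 members with at least 10 counts in these libraries, both Cohort C libraries were above both Cohort B ones for 17, below for 1 and overlapping for 26, and over all genes the first happened in 32.9% and the second in 7.35%. By complex the 17 were 3 of 4 in complex II, 4 of 10 in complex III, 3 of 12 in complex IV and 7 of 18 in complex V. They include UQCRQ, UQCRBP1, COX7A1, ATP5G1, ATP5S and ATP5SL, with 0 counts in both deep Cohort B libraries. These reached 10 counts through Cohort C alone, so their order was built in. The share over all genes can hold such genes as well. Without the TMM factor, an alternative added after the data had been seen, the numbers were 15 above, 1 below and 28 overlapping, with 30.1% above and 8.99% below over all genes. A fit to these 4 libraries, chosen for their depth after the counts had been seen, called 0 of the 44 members, against 0.881% of all genes.

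The deep libraries of Cohort B differed from each other far more than those of Cohort C. Among members with at least 10 counts in the pair, 23 of 36 (63.9%) differed by over 4-fold between 13EP12 and 13EP8 on the (CPM + 1) scale, where 42.5% of all genes did. Between 13EP5 and 15CP1 this was so for 2 of 44 (4.55%), SDHD and ATP5O, where 17.7% of all genes did. In Cohort B complex IV was the most uneven, with 9 of 10 genes, followed by complex III with 5 of 7, complex V with 8 of 15 and complex II with 1 of 4. The Cohort B pair holds fewer counts than the Cohort C pair, and the part of depth in this was not tested. The direction was mixed, with 4 of the 23 (UQCRB, COX5B, COX7B and COX7C) higher in 13EP12 and 19, such as COX7A2L and SDHD, higher in 13EP8.

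**Figure D5:**
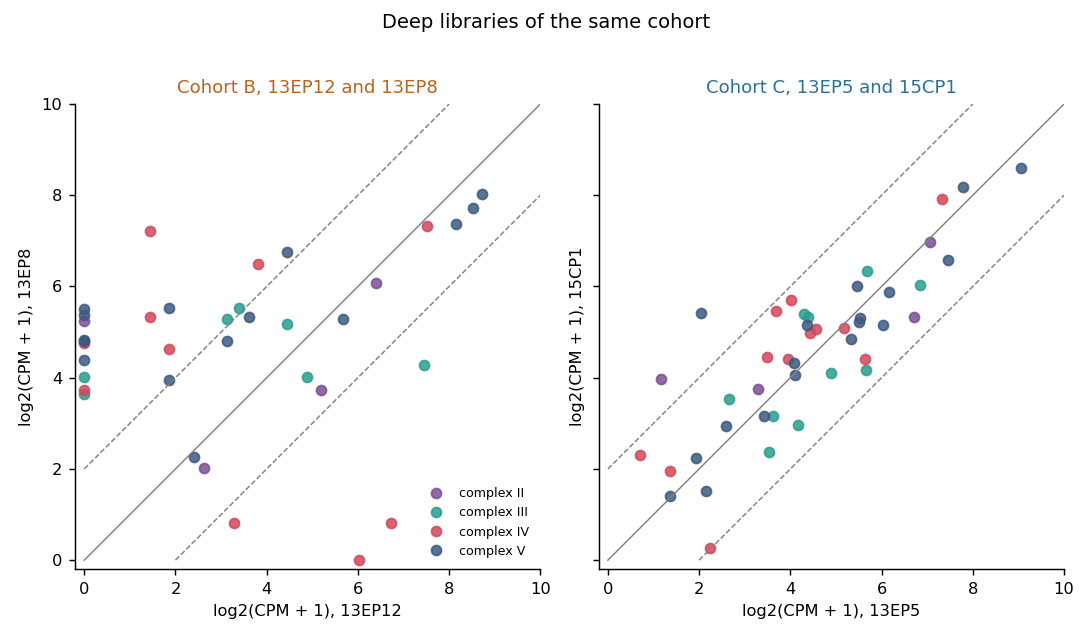
Level of each member, as log2(CPM + 1), in the deep libraries of Cohort B (left, 13EP12 and 13EP8) and of Cohort C (right, 13EP5 and 15CP1), coloured by complex, for members with at least 10 counts in the pair, where the solid line marks equal levels and the dashed lines a 4-fold difference. In Cohort B 23 of 36 genes lie outside the dashed lines and several sit at 0 in 13EP12, while in Cohort C 2 of 44 do.

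Levels of different genes can be compared only per length, as FPKM within a library. In monkey 15CP1, the deepest library, SDHB and SDHA were at 30.3 and 29.5 FPKM and SDHD and SDHC at 12.8 and 1.55 FPKM. In complex III UQCRH, UQCRHL and UQCRC1 led with 51.2, 49.1 and 39.9 FPKM. COX4I1, at 128 FPKM, led complex IV, followed by COX6A1 at 56.2 and COX7B at 45.1 FPKM. Complex V held the highest levels, with ATP5E at 273, ATP5A1 at 206 and ATP5B at 165 FPKM. Monkey 13EP5 had the same leading gene in complexes II, IV and V, at 608 (SDHB), 415 (COX4I1) and 3115 (ATP5E) FPKM, and UQCRHL (431 FPKM) in complex III. FPKM were not on one scale across libraries, as the summed FPKM of the members was 11040 in 13EP5 and 1599 in 15CP1. They also disagreed with the counts in places. Of 147 values with at least 10 counts on a member, 35 were listed at 0 FPKM, among them COX4I1 in monkey 15CP6, with 75 counts. Conversely, ATP5E was listed at 475 and 170 FPKM in 13EP12 and 15CP6 on 0 counts. In 15CP1 and 13EP5 it had 75 and 52 counts, against 1854 and 1693 for ATP5A1. The lead of ATP5E in complex V is therefore uncertain, as is the split of its reads with ATP5EP2.

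Few of the genes that work beside these complexes were called. Of 7 other nuclear subunits, carriers and related proteins, 1 (CYC1, log2 fold change 1.11) was above 0 and 6 below, with 0 called. Those below include cytochrome c (CYCS, -0.54) and the ATP synthase inhibitor ATPIF1 (-0.48). They also include the assembly factor COA3, which is counted again among the factors of complex IV. Assembly factors numbered 4 tested for complex II, 6 for complex III, 20 for complex IV and 3 for complex V, of which 3, 4, 7 and 1 had log2 fold changes above 0. A single one was called, COX19 of complex IV, lower in Cohort C at a log2 fold change of -7.00 (standard error 2.52, edgeR adjusted p = 0.141), where the rule called 5.36% of all genes in that direction. It had 318 counts in monkey 14HP26, against 3 and 6 in 13EP12 and 13EP8 and 30 and 7 in 13EP5 and 15CP1. Of 11 regulators of mitochondrial biogenesis tested, 6 were above 0 and 5 below, and of 14 tricarboxylic acid cycle enzymes 7 and 7, with 0 called in either list.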

How the data were processed

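RNA from sorted Tr1 cells of 10 monkeys was analysed, 1 library each, with cohorts and monkeys taken from the sample labels. The authors mapped the reads of these macaque cells to the human genome hg38 with HISAT2 2.0.2, and deposited raw counts per human gene symbol. Reads that differ from the human sequence may be lost, and the counting options on strand and multiply mapped reads are not given in the sources used here. The authors also deposited FPKM values from Cuffdiff 2.2.1, which were used for levels of genes within a library and as an alternative. The p-values and standard errors of edgeR rest on a spread between monkeys estimated over all genes together (common dispersion 4.74). They therefore do not measure the spread of each gene on its own. Where no standard error is given, as for COX6B2, edgeR bounded the p by a Poisson test, which measures no spread between monkeys.

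The cohorts were compared with the quasi-likelihood test of edgeR 4.0.16 in R 4.3.3 after TMM scaling. Genes under 10 counts in total were dropped, which left 14168. Calls needed p under 0.01 before adjustment and a change of 1.5-fold or more, the filter of the study's methods. A Benjamini-Hochberg adjusted p under 0.05 over all genes tested was counted separately. Standard errors were derived from the log2 fold changes and F values. Single genes were also tested on log2(CPM + 1) by exact permutation over all 252 assignments, two-sided, whose smallest p is 0.00794. The scripts were tested on data simulated with a smaller dispersion than that of these libraries. That test therefore does not show what changes the fit could find here. Alternatives used DESeq2 1.42.0 and limma 3.58.1 among others, and numpy 2.4.6, pandas 2.3.3 and scipy 1.17.1 (Python 3.11.15) served for the rest. Intervals and floors (3 counts) cover counting error only.

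The members and gene lists were chosen with earlier results of these data known. The genes described in full were, in each complex, those with the smallest p in each direction, the 2 with the highest median FPKM over the 2 deepest libraries, the core subunits, and pairs of widespread and tissue-restricted isoforms. Every other member is given by its counts or range. The counts of ATP5E and ATP5EP2, of UQCRH and UQCRHL and of UQCRB and UQCRBP1 are uncertain, since near-identical sequences could have shared or split their reads.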

Additional observations from a re-analysis of the deposited data

Results flagged for a closer look

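In groups of 5 libraries, a lowest or highest value is listed here where its gap to the next one exceeds the share of the group's range set by Dixon's test (0.71 for 5 values). Of 27 groups examined, 5 held such a value, and chance gives about 1 in 20. In Cohort B, monkey 14HP31 stood alone at 0 on the log2 scale for the summed level of complex III and for ATP5A1, with gaps of 0.868 and 0.805 of the range. In Cohort C, monkey 15CP4 stood alone at 0 for the summed level of complex V and of complexes II to V, with gaps of 0.728 and 0.784. Monkey 14HP33 stood alone as the highest of Cohort C for ATP5S, at 4.88 on the log2(CPM + 1) scale with a gap of 0.711, from 2 counts. This level is set by the TMM factor of 0.0725 of that library, and per 1000000 total counts ATP5S was at 2.07 in 14HP33 against 1.496 in 13EP5 and 1.36 in 15CP1.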

How the results depend on the processing

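No member was called under any of the 24 alternatives, among them filterByExpr, which left 10 of the 51 genes to test. Over all genes the calls fell from 911 to 563 with DESeq2 size factors, 341 with edgeR's exact test, 98 with the index suffix of the labels as a covariate, 67 with limma-voom, 22 with DESeq2 and 10 with filterByExpr, and ran from 76 to 695 with 1 library left out. Of 27 members fitted by name, 14 kept their direction throughout, and 58 of 608 values were reversed. The 14 include UQCRQ, COX7A1, ATP5G1 and ATP5S, which had 0 counts in all of Cohort B. Their direction could not reverse in a fit to the counts, so it is no sign of a stable difference. The causes were not tested. The 6 shallow libraries limit what can be seen of genes under about 3 counts.

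The replicate numbers of the labels number different monkeys. Deviations of same-numbered libraries correlated at between -0.43 and 0.38, and in no same-numbered pair was each library the best match of the other. With the replicate block 0 of 14168 genes were called, the medians were 0.59, 1.56, -0.64 and 0.36 for complexes II to V, and SDHD (0.57), COX8A (-0.065), ATP5B (-1.29) and ATP5C1 (-0.10) reversed.

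Median log2 fold changes crossed 0 for complex II with limma on log2(FPKM + 0.1) (-0.27), for complex III with filterByExpr (-1.03), for complex IV with limma on log2(FPKM + 1) (0.79), with log2(FPKM + 0.1) (0.90) and in the deep libraries alone (0.01), and for complex V with library size only (-0.04), filterByExpr (-0.59), log2(FPKM + 1) (-0.04) and libraries of at least 100000 counts outside MTRNR2L (-0.11). With 1 library left out they ran from 0.07 to 1.72, from -0.34 to 2.80, from -2.38 to -0.22 and from -0.35 to 1.24, for complexes II to V.

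Single genes reversed as follows. With limma on log2(FPKM + 1) COX4I1 was 0.88, COX7B 1.89, COX8A -0.17, ATP5B -0.035 and ATP5E -0.57. With log2(FPKM + 0.1) SDHA was -0.27, COX4I1 0.90, COX7B 2.56, COX8A -0.20, ATP5B -0.66 and ATP5E -1.23. With limma-voom SDHD was 0.25, COX8A -0.10, ATP5B -0.78 and ATP5C1 -0.16. With library size only COX8A was -0.17, ATP5B -0.059 and ATP5C1 -0.057. ATP5B was -0.14 with filterByExpr, COX8A -0.26 with the index suffix, and ATP5A1 0.17 with DESeq2 and with its size factors. In libraries of at least 100000 counts outside MTRNR2L COX8A was -0.14, ATP5B -0.22 and ATP5C1 -0.18. In the deep libraries alone, an alternative chosen after the counts had been seen, COX4I1 was 0.062, ATP5A1 0.28 and ATP5G2 0.53.

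With 1 library left out, log2 fold changes ran from -0.16 to 2.84 for SDHB, -3.57 to 5.19 for SDHD, -1.14 to 1.49 for UQCRHL, -2.40 to 1.63 for COX5B, -1.01 to 2.05 for COX8A, -0.94 to 0.46 for ATP5A1, -0.67 to 1.01 for ATP5B, -1.18 to 0.83 for ATP5C1 and -0.21 to 6.06 for ATP5E.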
